A study of Mus musculus with 12 samples.

Results

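Interferon-inducible genes were followed in mouse cerebral cortex 2 hr after controlled cortical impact (CCI), in which a piston injures the brain through an opening in the skull. The set holds 38 genes named by symbol, of 55487 genes in the table, and all 38 were found by their Ensembl identifiers. Of these, 33 had enough counts to be tested (edgeR's filterByExpr, which kept 16836 genes), and Ifnb1, Zbp1, Oasl1, Oas3 and Mx1 did not. RNA came from the cortex of the injured (ipsilateral) and of the opposite (contralateral) side. The control genotype, called wt here, was CX3CR1cre-er/+, and the second genotype, called cKO, was CX3CR1cre-er/+ STING fl/fl. All 4 groups (wt and cKO, each side) therefore carried the Cx3cr1 allele that encodes a ligand-dependent Cre, had CCI, and were taken at 2 hr, with 3 libraries each. The design text of the series names CX3CR1cre/+ for the floxed animals, and tamoxifen, age and sex are not mentioned. Cx3cr1 drives Cre in microglia and in monocytes, so other cell types keep STING in such a model. There was no uninjured or sham-operated group.

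Interferons are secreted proteins that warn cells of infection or of DNA and RNA in the wrong place. Type I interferons bind the receptor IFNAR, whose kinases activate STAT2; it joins IRF9 in a complex that binds the interferon-stimulated response element (ISRE) of many antiviral genes. Interferon gamma acts through its own receptor on genes with gamma-activated sites (GAS). STING, an adaptor in the pathway that senses cytosolic DNA, leads through TBK1 and IRF3 to transcription of Ifnb1, and microglia are a known source of type I interferon in the injured brain. Some members, Irf1 among them, are also transcribed early through NF-kB or STAT3 without interferon.

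Total counts were 20779210 to 33567194 per library, except in cKO ipsilateral library 3, which held 7958931. The targeted gene, Tmem173 (STING), was at 2.49, 2.63 and 3.18 CPM (counts scaled to library size with TMM factors) in wt contralateral cortex and at 0.998, 1.96 and 0.762 CPM in cKO contralateral cortex. These groups did not overlap (exact two-sided permutation p = 0.1, the smallest that 3 against 3 libraries allow). On the injured side it was at 2.34, 3.69 and 2.72 CPM in wt and at 1.05, 2.44 and 1.24 CPM in cKO, where cKO library 2 lay above wt library 1 (exact two-sided permutation p = 0.2). No label states that each library is its own animal; the p values therefore rest on the spread among these libraries, which may be technical. Levels below are CPM of libraries 1 to 3 unless given as TPM, the unit that also corrects for gene length. Each log2 fold change is printed ± SE. Tests were edgeR's quasi-likelihood F tests, adjusted by Benjamini-Hochberg over all 16836 genes.

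At 2 hr, 3 of the 33 tested members were higher on the injured side of wt cortex and none was lower (0.184% of all genes). They were Irf1, a transcription factor, Slfn2, a schlafen protein of leukocytes, and Plscr1, a phospholipid scramblase. Over all genes tested, 2.73% were called higher in that comparison. The same 3 members were called higher in cKO cortex, against 2.56% of all genes, and none was lower (0.178%). Of all genes, 1.91% were called higher in both genotypes. Averaged over both genotypes, Irf9 was called as well, which made 4 members against 5.99% of all genes. None was lower in that average (2.03% of all genes). At an unadjusted p under 0.05 there were 7 members in wt (14.4% of all genes), 7 in cKO (14.3%) and 12 over both (22.9%). These shares are above those of all genes, on a small number of members. The members were chosen with earlier results of these data known, so the difference is no independent support. Comparisons of their changes with all genes, here and below, are descriptions.

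The members were also sorted by how far the data bound their change. A member was called rising where it passed in either genotype, and within 2-fold where it passed in neither and both 95% intervals lay inside −1 to 1 on the log2 scale. By this rule 3 were rising, 18 were within 2-fold, 12 were unresolved because an interval reached past 2-fold, and 5 were below the count filter. Among all genes tested, 78.3% were within 2-fold and 3.38% were called higher in either genotype. Summed over the 18 members within 2-fold, TPM were 92.3 ± 6.34 (SD, n = 3) in wt contralateral and 81.8 ± 7.52 in wt ipsilateral cortex, and 94.7 ± 2.34 and 101 ± 27.9 in cKO contralateral and ipsilateral cortex. The cKO ipsilateral mean rests on the shallow library 3, at 133 TPM. Libraries 1 and 2 of that group, at 89.6 and 80.9 TPM, lay below every cKO contralateral library (93.2 to 97.4 TPM), so the direction in cKO turns without library 3. The 3 rising members summed to 8.5 ± 1.02 and 14.9 ± 2.66 TPM in wt contralateral and ipsilateral cortex, and to 8.96 ± 1.24 and 21.6 ± 4.62 TPM in cKO.

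**Figure D1:**
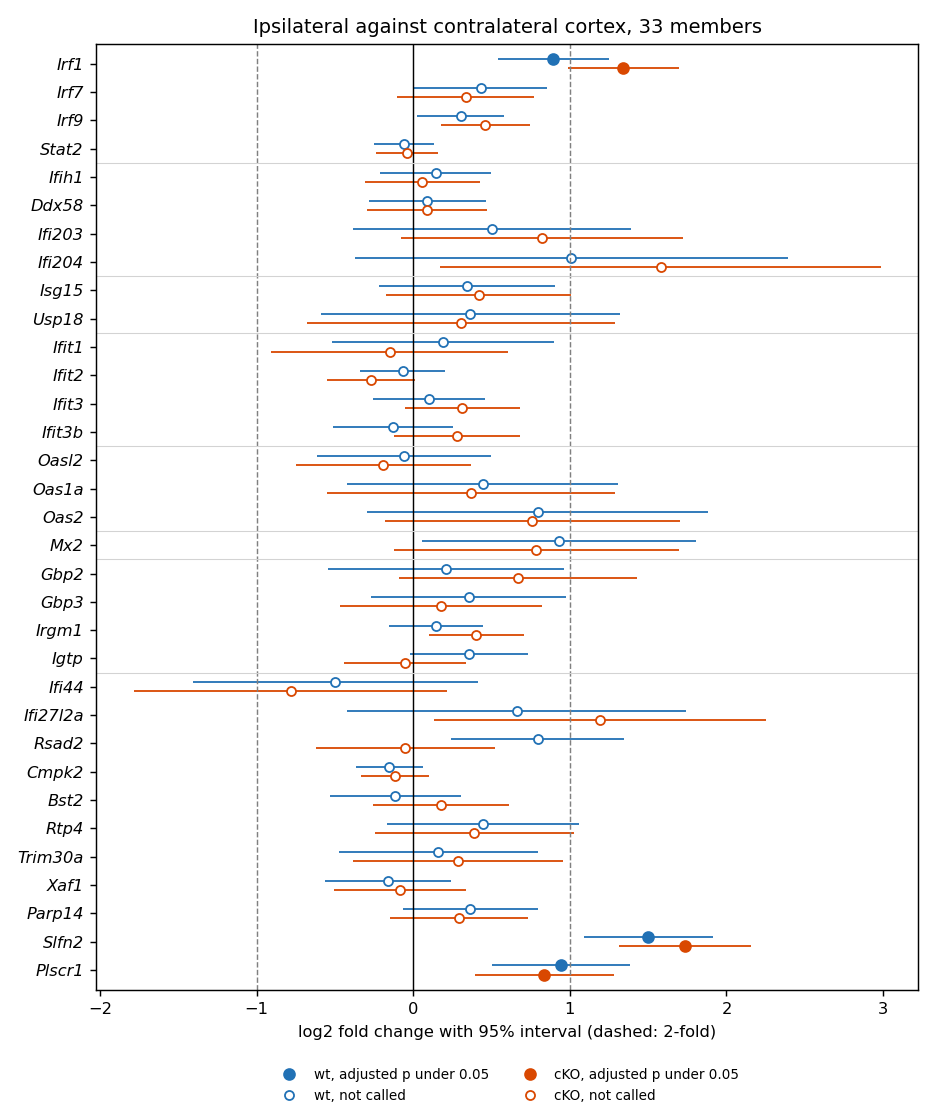
Log2 fold change (x axis) of ipsilateral against contralateral cortex with its 95% interval for each of 33 tested members (y axis, grouped by role), in wt (blue) and cKO (orange); filled points passed an adjusted p of 0.05 and dashed lines mark 2-fold. Irf1, Slfn2 and Plscr1 are filled in both genotypes, and most other intervals include 0.

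Most members lay slightly above 0 without passing. The median log2 change over the 33 was 0.34 in wt and 0.31 in cKO, against −0.01 over all genes in each. In wt 25 members, and in cKO 24, had a value above 0, against 48.8% and 48.6% of all genes. Over both genotypes 27 members were above 0 (48.2% of all genes) and the median was 0.33. All 3 ipsilateral libraries were above all 3 contralateral ones for 6 members in wt (10.5% of all genes) and for 10 in cKO (10.8% of all genes). All 3 were below for 1 member in wt, Cmpk2 (8.7% of all genes), and for none in cKO (11.1% of all genes). Because the tissue is bulk cortex, a change in the number of cells of a type and a change in RNA per cell cannot be told apart.

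The ligand of the set, Ifnb1 (interferon beta), had 0 counts in each of the 12 libraries. A count of 3, taken as the floor of measurement, equals 0.0894 CPM at the greatest depth and 0.377 CPM at the lowest, and covers counting error only. Ifnb1 transcription in cortex was therefore not detectable at this depth in any group. Of 13 interferon ligand genes in the table, 9 had no count in any library. Ifne had 2 counts, Ifnk 1, Ifnz 3 and Ifng 2, each in 1 library.

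Among the signalling and transcription factors, Irf1 rose and the others moved less. Irf1 (chromosome 11, 53770014 to 53778374, plus strand, in mm10) encodes an activator that interferon gamma and NF-kB induce. It was at 5.21, 4.60 and 4.45 CPM in wt contralateral cortex and at 9.14, 9.57 and 7.82 CPM on the injured side. In cKO cortex it was at 5.28, 4.26 and 6.05 CPM contralaterally and at 15.4, 10.3 and 13.9 CPM ipsilaterally. All ipsilateral libraries lay above all contralateral ones in both genotypes. The log2 change was 0.89 ± 0.17 in wt (95% interval 0.54 to 1.25, adjusted p = 0.00642) and 1.34 ± 0.17 in cKO (0.98 to 1.70, adjusted p = 0.000154). On the TPM scale Irf1 was at 5.91, 4.50 and 4.39 in wt contralateral and at 8.59, 7.11 and 6.03 in wt ipsilateral cortex, and limma on log2(TPM + 1) did not call it in wt (0.47, adjusted p = 0.242). The gene overlaps Gm17334 on the opposite strand, and whether the counting used strand is not stated.

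Irf9 encodes a DNA-binding subunit of the complex with STAT2. It was at 5.11, 4.98 and 5.31 CPM contralaterally and 5.94, 6.48 and 6.58 CPM ipsilaterally in wt. Its cKO values were 5.52, 6.26 and 4.81 CPM contralaterally and 7.06, 7.53 and 8.58 CPM ipsilaterally. The injured side was above the opposite side in every library of both genotypes, by a small amount. Neither genotype alone passed (0.30 ± 0.13, adjusted p = 0.289 in wt; 0.46 ± 0.13, adjusted p = 0.0940 in cKO), and the mean over both did (0.38 ± 0.09, adjusted p = 0.0194). That call was lost without wt contralateral library 2 (0.37, adjusted p = 0.0525) and on log2(TPM + 1) (0.23, adjusted p = 0.247).

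Irf7, which interferon itself induces and which amplifies interferon alpha production, was at 2.28, 2.49 and 2.13 CPM contralaterally and 2.46, 3.39 and 3.46 CPM ipsilaterally in wt. In cKO it was at 3.08, 2.00 and 2.62 CPM contralaterally and 3.10, 3.20 and 3.61 CPM ipsilaterally. The groups overlapped in wt and lay next to each other in cKO, and neither difference passed (0.43 ± 0.20, adjusted p = 0.345; 0.33 ± 0.20, adjusted p = 0.490). Stat2, a transducer of type I signalling, was at 18.4, 18.2 and 17.6 CPM contralaterally and 18.4, 16.2 and 17.4 CPM ipsilaterally in wt. In cKO Stat2 was at 19.0, 17.4 and 20.3 CPM contralaterally and at 17.7, 17.9 and 20.0 CPM ipsilaterally. Its intervals were among the narrowest of the set, −0.25 to 0.13 in wt and −0.24 to 0.15 in cKO.

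**Figure D2:**
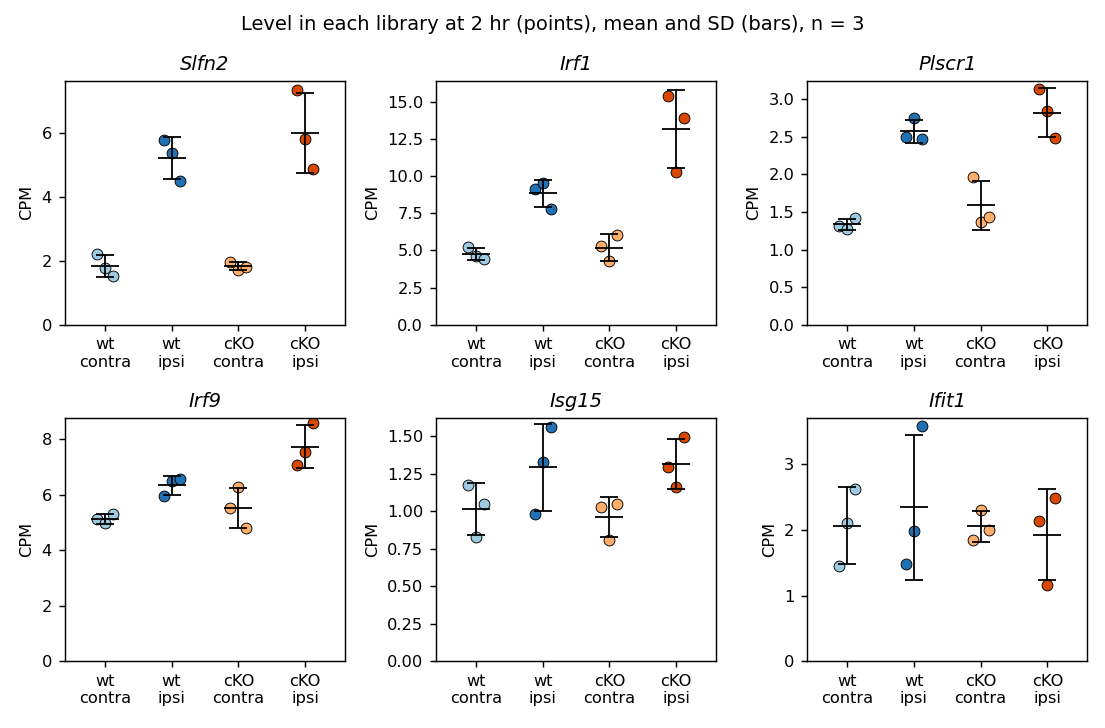
CPM (y axis) in each library (points; bars are mean and SD, n = 3) of Slfn2, Irf1, Plscr1, Irf9, Isg15 and Ifit1 in the 4 groups (x axis). The ipsilateral points of Slfn2, Irf1 and Plscr1 lie above the contralateral ones in both genotypes, and those of Ifit1 overlap.

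None of the 4 tested nucleic acid sensors passed in either genotype (3.38% of all genes were called higher in either). Ifih1 (MDA5) and Ddx58 (RIG-I), which detect double-stranded and uncapped RNA, were within 2-fold, at 0.14 ± 0.17 and 0.09 ± 0.17 in wt and at 0.06 ± 0.17 and 0.09 ± 0.18 in cKO. Ifi203 and Ifi204, members of a family that binds DNA, were unresolved. Ifi204 had 2 to 20 counts per library, and its log2 values of 1.01 ± 0.65 in wt and 1.58 ± 0.66 in cKO carried the widest intervals of the set (−0.37 to 2.39 and 0.17 to 2.99; adjusted p = 0.519 and 0.288). Of its 50-base stretches 20.0% also occur in transcripts of other genes, chiefly Ifi211, so reads may be split between them. Averaged over genotypes Ifi204 was called only in the fits without wt ipsilateral library 1 (1.52, adjusted p = 0.0459) and with no count filter (1.30, adjusted p = 0.0281). Zbp1, a sensor of Z-form nucleic acid, had 0 to 6 counts per library and was not tested.

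Isg15 encodes the ubiquitin-like protein that is among the strongest targets of type I interferon, and Usp18 the protease that removes it and also damps IFNAR. Isg15 was at 1.17, 0.829 and 1.05 CPM contralaterally and 0.983, 1.33 and 1.56 CPM ipsilaterally in wt, where the groups overlapped. In cKO it was at 1.03, 0.810 and 1.05 CPM contralaterally and 1.30, 1.16 and 1.49 CPM ipsilaterally, where they did not. Neither log2 change passed (0.34 ± 0.26, adjusted p = 0.605 in wt; 0.42 ± 0.28, adjusted p = 0.528 in cKO). The upper limit in cKO, 1.01, put Isg15 just outside the 2-fold class, as the limit of 0.98 for Gbp3 in wt kept that gene just inside. Usp18 was at 0.276, 0.553 and 0.561 CPM contralaterally and 0.451, 0.429 and 0.905 CPM ipsilaterally in wt. In cKO Usp18 was at 0.734, 0.426 and 0.286 CPM contralaterally and 0.793, 0.440 and 0.622 CPM ipsilaterally, so that both pairs of groups overlapped.

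The IFIT family, proteins that bind foreign RNA and are classical early interferon targets, had 4 of 4 members within 2-fold and none that passed. For comparison, 78.3% of all genes tested were within 2-fold and 3.38% were called higher in either genotype. The family's median log2 change was 0.02 in wt and 0.06 in cKO. Ifit1 was at 1.45, 2.11 and 2.62 CPM contralaterally and 1.47, 1.97 and 3.58 CPM ipsilaterally in wt, and at 1.85, 2.30 and 2.00 CPM against 2.13, 1.16 and 2.49 CPM in cKO. Its groups overlapped in both genotypes (95% intervals −0.52 to 0.90 and −0.91 to 0.61). Ifit3 was at 9.04, 9.47 and 8.94 CPM contralaterally and 7.83, 9.31 and 12.3 CPM ipsilaterally in wt. In cKO Ifit3 was at 8.83, 8.35 and 8.62 CPM contralaterally and 12.4, 8.09 and 11.9 CPM ipsilaterally. Of the 50-base stretches of Ifit3, 51.2% also occur in Ifit3b, so the split of reads between this pair is uncertain. Ifit2, which shares no such stretch, was at 11.7 ± 1.0 and 11.2 ± 1.72 CPM (SD, n = 3) in wt contralateral and ipsilateral cortex and at 11.8 ± 1.05 and 9.73 ± 1.01 CPM in cKO.

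Of the 5 oligoadenylate synthetase genes, whose products switch on RNase L, 3 were tested and none passed (3.38% of all genes). Oasl2 was at 2.11, 2.00 and 2.13 CPM contralaterally and 1.39, 1.63 and 2.96 CPM ipsilaterally in wt. In cKO Oasl2 was at 3.14, 2.51 and 2.24 CPM contralaterally and 2.09, 2.60 and 2.24 CPM ipsilaterally; it was within 2-fold in both genotypes. Oas1a and Oas2 were unresolved, with 5 to 24 and 3 to 15 counts per library. Oas3 had 0 counts in all 6 contralateral libraries and 0, 7, 2, 2, 9 and 0 counts in the ipsilateral ones (wt, then cKO), and Oasl1 had 0 to 8 counts. Without the count filter Oas3 was called over both genotypes (adjusted p = 0.00101), a value that rests on counts in 4 libraries. Of the dynamin-like MX GTPases, Mx1 had 0 to 10 counts and was not tested. Mx2, annotated as a polymorphic pseudogene, had log2 values of 0.93 ± 0.41 in wt and 0.78 ± 0.43 in cKO that did not pass (adjusted p = 0.309 and 0.427).

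None of the 4 guanylate-binding and immunity-related GTPases, which interferon gamma induces against intracellular pathogens, passed in either genotype (3.38% of all genes). Irgm1, an autophagy-linked GTPase and the second most abundant of the uncalled members at a mean of 10.1 TPM, was at 11.2, 10.4 and 11.3 CPM contralaterally and 12.5, 11.0 and 12.7 CPM ipsilaterally in wt. In cKO Irgm1 was at 11.6, 10.7 and 13.9 CPM contralaterally and 16, 13 and 19.9 CPM ipsilaterally. Its change was 0.14 ± 0.14 in wt and 0.40 ± 0.14 in cKO (adjusted p = 0.701 and 0.197). Over both genotypes Irgm1 passed without cKO ipsilateral library 2 (0.35, adjusted p = 0.0399). Igtp and Gbp3 were within 2-fold. Gbp2 was unresolved, at 6.96, 2.84 and 8.96 CPM in cKO ipsilateral cortex, and it passed in cKO only without the count filter (0.67, adjusted p = 0.0339).

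The other 11 effectors held the member with the largest change that passed. Slfn2 (chromosome 11, 83065112 to 83070678, plus strand) keeps T cells and monocytes quiescent in mice. It was at 2.21, 1.76 and 1.53 CPM contralaterally and 5.78, 5.36 and 4.48 CPM ipsilaterally in wt. In cKO Slfn2 was at 1.97, 1.70 and 1.81 CPM contralaterally and 7.32, 5.81 and 4.85 CPM ipsilaterally. Every ipsilateral library was above 4 CPM and every contralateral one below 3 CPM. The log2 change was 1.5 ± 0.19 in wt (95% interval 1.09 to 1.91, adjusted p = 0.000228) and 1.74 ± 0.20 in cKO (1.31 to 2.16, adjusted p = 5.97e-05). Slfn2 overlaps the antisense gene Gm20234, and 4.27% of its 50-base stretches also occur in Slfn4, a paralog that was called as well.

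Plscr1 (chromosome 9, 92249750 to 92272278, plus strand) was at 1.31, 1.28 and 1.42 CPM contralaterally and 2.5, 2.75 and 2.47 CPM ipsilaterally in wt. In cKO it was at 1.97, 1.36 and 1.43 CPM contralaterally and 3.14, 2.84 and 2.49 CPM ipsilaterally. The groups did not overlap in either genotype, and the change was 0.94 ± 0.21 in wt (adjusted p = 0.0204) and 0.84 ± 0.21 in cKO (adjusted p = 0.0446). Of the 50-base stretches of Plscr1, 12.3% also occur in Gm5530. These calls were lost in more alternatives than those of Slfn2 and Irf1. The wt call was lost without wt contralateral library 1 (adjusted p = 0.0665) or 2 (0.102) and without wt ipsilateral library 2 (0.0881) or 3 (0.0513). The cKO call was lost without cKO contralateral library 2 (adjusted p = 0.174) or 3 (0.120), cKO ipsilateral library 1 (0.177) or 2 (0.132), wt contralateral library 1 (0.0552) or 2 (0.0618), or any wt ipsilateral library (0.0531 to 0.0579). Averaged over genotypes Plscr1 rose by 0.89 ± 0.15 (adjusted p = 0.00117) and was called in 22 of 23 alternatives.

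The uncalled effectors included the most abundant member. Cmpk2, a mitochondrial nucleotide kinase next to Rsad2 on chromosome 12, had a mean of 12.4 TPM. It was at 25.4, 24.2 and 27.5 CPM contralaterally and 22.8, 23.6 and 22.9 CPM ipsilaterally in wt, with every ipsilateral library below every contralateral one. In cKO Cmpk2 was at 24.1, 26.4 and 21.8 CPM contralaterally and 19.3, 23.7 and 24.1 CPM ipsilaterally, where the groups overlapped. Neither difference passed (−0.15 ± 0.10, adjusted p = 0.528; −0.12 ± 0.10, adjusted p = 0.653). Rsad2 (viperin, an antiviral radical enzyme) was at 0.898, 1.17 and 1.42 CPM contralaterally and 2.17, 2.45 and 1.44 CPM ipsilaterally in wt. In cKO Rsad2 was at 1.64, 1.70 and 1.38 CPM contralaterally and 1.73, 1.48 and 1.24 CPM ipsilaterally. The wt groups did not overlap, but the change did not pass (0.79 ± 0.26, adjusted p = 0.139), and the cKO groups overlapped (−0.05 ± 0.27, adjusted p = 0.960).

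Xaf1, an antagonist of the caspase inhibitor XIAP with a mean of 9.71 TPM, was at 4.56, 4.01 and 4.34 CPM contralaterally and 3.69, 3.61 and 4.24 CPM ipsilaterally in wt. In cKO Xaf1 was at 4.26, 2.77 and 4.38 CPM contralaterally and 3.64, 3.0 and 4.48 CPM ipsilaterally. Both pairs of groups overlapped, and Xaf1 was within 2-fold. So were Bst2 (tetherin), Trim30a and the ADP-ribosyltransferase Parp14. Rtp4, Ifi27l2a and Ifi44 were unresolved. Of these, Ifi27l2a had 4 to 17 counts per library and the log2 values 0.66 ± 0.51 in wt and 1.19 ± 0.50 in cKO, and Ifi44, with 2 to 28 counts, was the lowest of all members at −0.50 ± 0.43 and −0.78 ± 0.47. None of these passed, the smallest adjusted p being 0.286 for Ifi27l2a in cKO.

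The classes differed in level. The unresolved members had a median level of 0.531 TPM (0.173 to 3.64), against 4.14 TPM (0.555 to 12.4) for those within 2-fold and 3.78 TPM (2.35 to 7.37) for those rising. By the sorting rule itself, the intervals of members within 2-fold exclude a log2 change of 1.34, that of Irf1 in cKO. Some unresolved members had intervals that included it, such as Ifi204 in cKO (0.17 to 2.99).

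**Figure D3:**
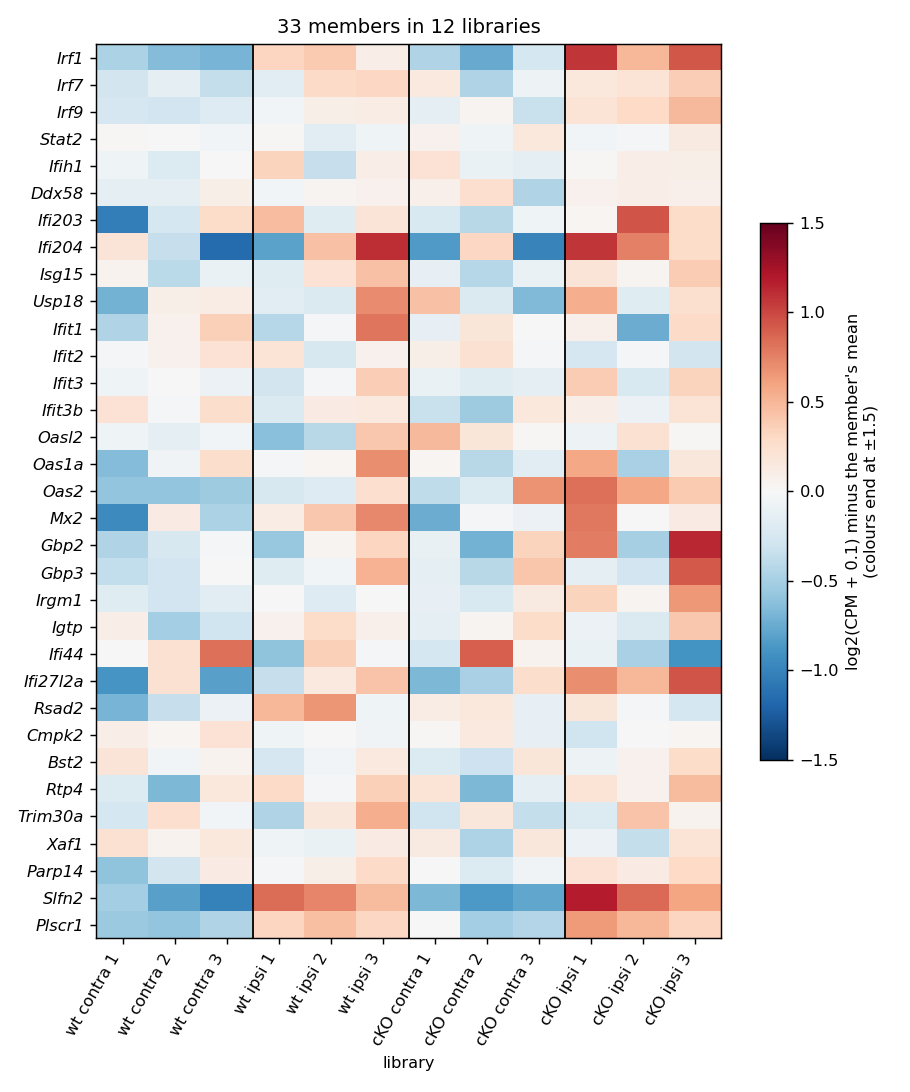
log2(CPM + 0.1) of 33 tested members (rows, grouped by role) in 12 libraries (columns), as the difference from each member's mean over the libraries; colours end at ±1.5. Irf1, Slfn2 and Plscr1 change at the border between sides in both genotypes, while many other rows vary more between libraries of a group than between groups.

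Members varied together between libraries of some groups. In wt ipsilateral cortex, library 3 held the highest value of the group for 22 of 33 members (66.7%, against 32.2% of all genes tested), among them Isg15, Usp18, Ifit1, Ifit3, Oasl2, Oas1a and Mx2. Library 1 of that group held the lowest value for 21 members, for which no share of all genes was computed. Library 3 was also the highest of wt contralateral cortex for 20 members (60.6%, against 39.1% of all genes). In cKO ipsilateral cortex, the shallow library 3 was highest for 16 (48.5%, against 37.4%). The shares in cKO contralateral cortex were near those of all genes. Libraries 1 to 3 were highest there for 30.3%, 30.3% and 39.4% of members, against 28.6%, 33.6% and 37.8%. Library 3 of wt ipsilateral cortex was the lowest of its group for 4 members, Slfn2, Irf1, Plscr1 and Rsad2. The number of calls was the same without cKO ipsilateral library 3 and wt contralateral library 3 together. It was 3 in wt, 3 in cKO and 4 over both, in a fit that called 968, 572 and 1988 of 17047 genes.

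Markers of blood cells moved with the side. Summed levels below cover every marker of a list in the table, tested or not. Of 16 neutrophil markers in the table, 12 passed the count filter. Of these 12, 10 were higher on the injured side in wt and 11 in cKO. The summed level of neutrophil markers was 6.41 to 9.43 TPM in wt contralateral and 42.2 to 101 TPM in wt ipsilateral cortex. In cKO it was 8.26 to 23 TPM contralaterally and 83.3 to 184 TPM ipsilaterally. Ly6g and Mmp8 were at 0 in all contralateral libraries, and Clec4e was at 0 in all cKO contralateral ones. Mmp8 passed the count filter only through the injured side and could not have been called lower, so its call adds no support. Of 5 tested erythroid genes, 3 and 5 were higher, with summed levels of 9.47 to 961 TPM in wt contralateral and 2391 to 7309 TPM in wt ipsilateral cortex, and of 19.4 to 332 TPM and 2508 to 3266 TPM in cKO. None of 8 tested monocyte and macrophage markers was called in either genotype (1 at an unadjusted p under 0.05 in each, edgeR), and their summed level was 11.2 to 15.4 TPM contralaterally and 16.3 to 21.2 TPM ipsilaterally in wt, and 8.65 to 12.5 TPM and 14.2 to 21.1 TPM in cKO. Of 15 microglia markers, 1 was lower in each genotype, Tmem119 (−0.71 ± 0.13 in wt). Of 10 neuron markers, 1 was lower in wt (Tubb3) and 2 in cKO (Tubb3 and Snap25). Of 12 endothelial markers 1 was higher in each genotype, and of 10 astrocyte markers 2 were higher in wt and 1 in cKO. Of all genes, 2.73% were higher and 0.184% lower in wt, and 2.56% and 0.178% in cKO. Averaged over genotypes, 12 neutrophil, 5 erythroid, 6 astrocyte and 3 endothelial markers were higher (5.99% of all genes). So were 1 microglia marker and 1 monocyte and macrophage marker, Pf4. In that average 4 neuron markers and 1 microglia marker were lower (2.03% of all genes). The part of these markers in the rise of Slfn2, Irf1 and Plscr1 was not tested.

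Promoter windows of 300 bases, from 250 before to 50 after a RefSeq start site, were available for 29 of the 38 members. They come from the RefSeq table of GRCm38.p6, the assembly also named mm10. The start meant here is that RefSeq site, which can differ from the gene limits in GENCODE M21. The windows of Plscr1, Irgm1 and Irf9 lie wholly inside those limits, downstream of the GENCODE start. They were searched on both strands for the ISRE core (GAAA, then GAAA again on the same strand, with any 2 bases between), for the GAS motif TTCNNNGAA and for the consensus NF-kB motif. The windows below belong to the 3 rising members, to the 3 most abundant members within 2-fold, and to Isg15 and Ifit1, which were added after the motif counts were seen because they show the ISRE core of genes that did not pass. They lie at chr11:83064862-83065161 (Slfn2, plus strand), chr11:53769764-53770063 (Irf1, plus), chr9:92249944-92250243 (Plscr1, plus), chr12:26468965-26469264 (Cmpk2, plus), chr11:48871371-48871670 (Irgm1, minus), chr11:72301379-72301678 (Xaf1, plus), chr4:156200769-156201068 (Isg15, minus) and chr19:34640639-34640938 (Ifit1, plus). Each is written in the direction of transcription, and capitals mark matches of the 3 motifs.
Slfn2: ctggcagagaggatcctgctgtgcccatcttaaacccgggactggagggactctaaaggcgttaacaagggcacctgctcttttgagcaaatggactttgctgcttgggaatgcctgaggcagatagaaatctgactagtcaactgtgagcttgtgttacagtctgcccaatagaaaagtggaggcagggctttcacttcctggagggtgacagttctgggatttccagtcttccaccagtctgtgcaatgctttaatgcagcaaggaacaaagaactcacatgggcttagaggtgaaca
Irf1: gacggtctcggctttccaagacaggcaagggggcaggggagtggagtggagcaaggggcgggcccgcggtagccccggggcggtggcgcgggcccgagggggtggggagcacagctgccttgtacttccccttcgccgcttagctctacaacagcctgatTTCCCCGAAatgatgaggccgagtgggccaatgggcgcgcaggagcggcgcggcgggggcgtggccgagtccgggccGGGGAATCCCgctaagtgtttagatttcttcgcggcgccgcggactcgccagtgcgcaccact
Plscr1: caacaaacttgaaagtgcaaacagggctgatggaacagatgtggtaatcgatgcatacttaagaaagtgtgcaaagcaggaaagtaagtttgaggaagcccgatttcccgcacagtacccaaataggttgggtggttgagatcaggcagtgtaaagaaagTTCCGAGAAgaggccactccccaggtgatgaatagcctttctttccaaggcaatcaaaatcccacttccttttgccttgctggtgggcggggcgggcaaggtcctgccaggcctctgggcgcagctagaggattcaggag
Cmpk2: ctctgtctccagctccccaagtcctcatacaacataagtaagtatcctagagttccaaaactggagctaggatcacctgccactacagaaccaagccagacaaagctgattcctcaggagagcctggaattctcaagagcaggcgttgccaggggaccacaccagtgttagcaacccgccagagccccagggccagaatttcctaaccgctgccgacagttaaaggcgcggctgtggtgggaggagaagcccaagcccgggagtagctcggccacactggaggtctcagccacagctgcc
Irgm1: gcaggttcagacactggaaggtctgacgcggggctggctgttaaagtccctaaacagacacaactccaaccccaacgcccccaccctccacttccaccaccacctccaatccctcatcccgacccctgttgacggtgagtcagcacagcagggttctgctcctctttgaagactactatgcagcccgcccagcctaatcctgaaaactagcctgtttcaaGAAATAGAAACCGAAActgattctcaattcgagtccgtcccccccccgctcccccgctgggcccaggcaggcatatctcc
Xaf1: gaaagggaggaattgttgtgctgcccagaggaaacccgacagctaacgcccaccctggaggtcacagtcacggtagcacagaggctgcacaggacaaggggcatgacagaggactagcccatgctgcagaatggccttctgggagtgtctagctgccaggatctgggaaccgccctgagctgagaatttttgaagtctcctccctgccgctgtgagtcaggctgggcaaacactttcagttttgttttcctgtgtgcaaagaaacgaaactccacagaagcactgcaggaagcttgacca
Isg15: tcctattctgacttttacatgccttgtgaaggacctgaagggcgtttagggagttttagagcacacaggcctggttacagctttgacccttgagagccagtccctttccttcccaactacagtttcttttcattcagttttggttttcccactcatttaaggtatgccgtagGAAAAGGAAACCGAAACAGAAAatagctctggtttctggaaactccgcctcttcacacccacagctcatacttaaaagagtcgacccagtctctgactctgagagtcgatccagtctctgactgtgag
Ifit1: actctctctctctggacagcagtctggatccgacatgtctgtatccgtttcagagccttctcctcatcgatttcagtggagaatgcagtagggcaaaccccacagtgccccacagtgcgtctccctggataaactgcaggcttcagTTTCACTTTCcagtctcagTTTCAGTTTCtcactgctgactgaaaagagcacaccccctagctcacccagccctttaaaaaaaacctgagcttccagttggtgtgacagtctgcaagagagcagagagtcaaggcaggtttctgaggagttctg

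The ISRE core was found in 16 of 29 member windows (55.2%), against 3.44% of all 32851 windows in the table and 2.94% of those of tested genes. None of the 3 rising members held it, and 11 of 17 members within 2-fold and 4 of 6 unresolved members did. In Isg15 and Irgm1 overlapping copies began 78 and 30 bases before the start, and in Ifit1 separate copies on the opposite strand began 104 and 85 bases before it. The GAS motif was found in 6 of 29 windows (20.7%, against 8.30% of all windows). Irf1 and Plscr1 each held a GAS motif that began 90 bases before the RefSeq start, as TTCCCCGAA and TTCCGAGAA, and 3 of 17 members within 2-fold held one. The match of Plscr1 lies inside the gene as annotated in GENCODE M21. Irf1 also held an NF-kB motif, 13 bases before its start; this motif was found in 8 of 29 windows (27.6%, against 8.46%), in 2 of 17 members within 2-fold and in all 3 windows of members below the filter, Ifnb1, Oas3 and Oasl1. In the windows of Bst2 and Ifit2 the NF-kB and GAS matches overlap by a few bases. Slfn2, Cmpk2 and Xaf1 held none of the 3 motifs in this window. A match is a description of the sequence, and with 3 rising members the counts per class are small.

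**Figure D4:**
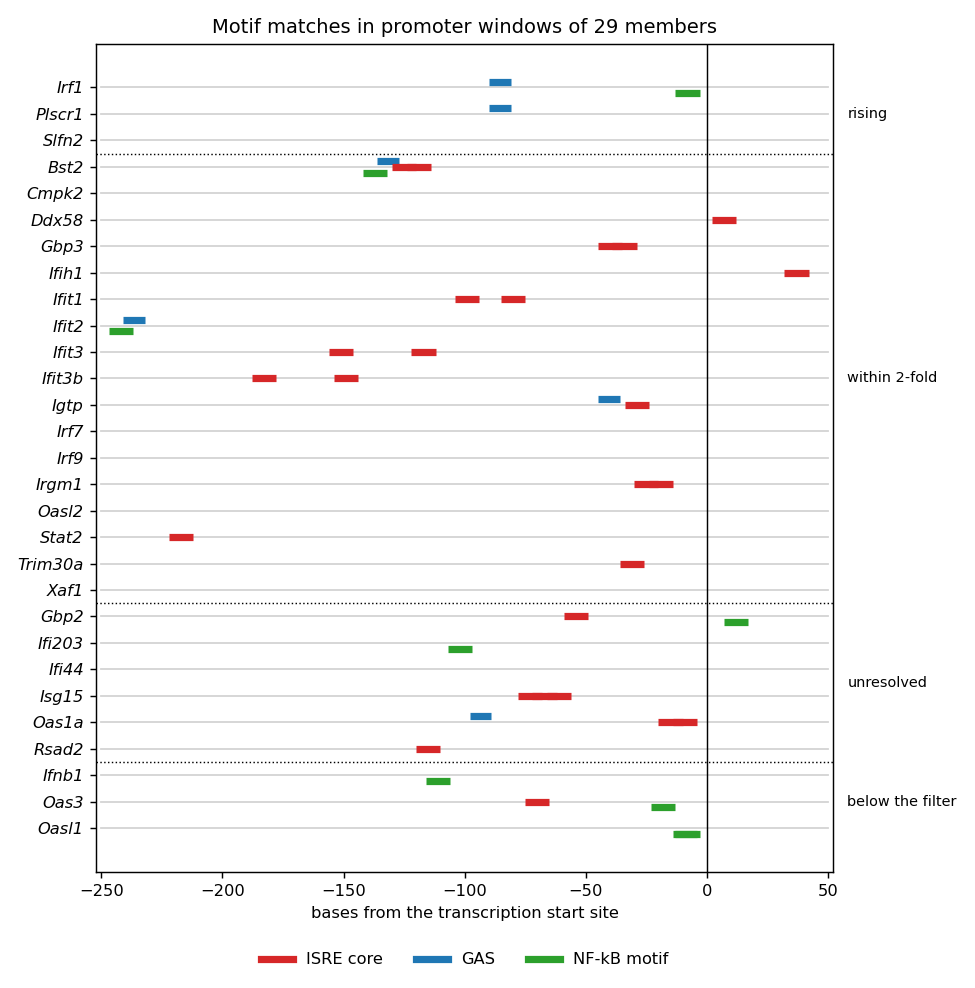
Matches of the ISRE core (red), GAS (blue) and NF-kB (green) motifs along the promoter windows of 29 members (rows, sorted by class) by distance in bases from the RefSeq transcription start site (x axis). Red marks stand in 11 of 17 windows of members within 2-fold and in none of the 3 rising members, where a blue mark stands in Irf1 and Plscr1.

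Other genes of the pathway are given by their counts, to be read against the 2.73% of all genes called higher in wt, 2.56% in cKO and 5.99% over both genotypes. Of 19 tested interferon receptor and signal transducer genes, 2 were higher on the injured side in wt and 3 in cKO, and none was lower. The median log2 change of the list was 0.05 in wt and 0.04 in cKO. Those called were Irf5, an interferon regulatory factor of myeloid cells (1.16 ± 0.21 in wt, adjusted p = 0.00501; 0.94 ± 0.21 in cKO, adjusted p = 0.0210), Stat3, which serves interleukins of the IL-6 family (0.34 ± 0.07 and 0.37 ± 0.07; adjusted p = 0.0135 and 0.00800), and in cKO Irf8, a factor of microglia and monocytes (0.93 ± 0.22, adjusted p = 0.0289). Socs1, a feedback inhibitor of JAK kinases, was added over both genotypes (1.28 ± 0.31, adjusted p = 0.0208). Of 16 genes that lead to interferon transcription, 2 were higher in wt, the Toll-like receptor adaptors Myd88 (0.73 ± 0.14, adjusted p = 0.00911) and Ticam1 (0.51 ± 0.12, adjusted p = 0.0315). None of them was called in cKO with edgeR, where 5 had an unadjusted p under 0.05; the median log2 change was 0.13 in wt and 0.20 in cKO. The 2 most abundant of these genes in TPM, Trim32 (103) and Zdhhc1 (26.7), were at −0.13 ± 0.06 and 0.02 ± 0.10 in cKO.

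Of 88 tested interferon-inducible genes outside the set, 8 were higher on the injured side in wt and 6 in cKO, and none was lower, against the same 2.73% and 2.56% of all genes; the median log2 change was 0.10 and 0.09. Averaged over genotypes 17 were higher (5.99% of all genes), with Gch1, Ch25h, Ifi207 and Cxcl10 at the smallest adjusted p. Cxcl10, a chemokine for activated T cells that both interferon and NF-kB induce, was at 0.327 ± 0.301 CPM contralaterally and 3.13 ± 1.0 CPM ipsilaterally in wt (SD, n = 3; log2 3.26 ± 0.63, adjusted p = 0.00893), and at 0.175 ± 0.234 and 3.49 ± 1.59 CPM in cKO (4.06 ± 0.69, adjusted p = 0.00269). Gch1, the first enzyme of tetrahydrobiopterin synthesis, was called in both genotypes (1.77 ± 0.21, adjusted p = 0.000110; 1.21 ± 0.21, adjusted p = 0.00286). In wt the next were H2-K1, a class I antigen-presenting molecule (0.68 ± 0.14, adjusted p = 0.0130), and Cd274, an inhibitory ligand for T cells (0.94 ± 0.20, adjusted p = 0.0143). In cKO Ifi207, of the family of Ifi203 and Ifi204 (3.21 ± 0.46, adjusted p = 0.000575), and Ch25h, which makes an antiviral oxysterol (2.61 ± 0.40, adjusted p = 0.000986), had the smallest adjusted p. These lists are descriptions by counts and medians.

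The comparison of genotypes asked whether the members differed where STING was floxed. None of the 33 members, and none of the 16836 genes (0.0% called), passed between cKO and wt on the injured side (edgeR; DESeq2 and limma-voom also called none of the members). At an unadjusted p under 0.05 there were 2 members with edgeR (987, or 5.86%, of all genes), 2 with DESeq2 and 3 with limma-voom. The 2 were Irf1, higher in cKO by 0.57 ± 0.16 (95% interval 0.23 to 0.92, unadjusted p = 0.00290, adjusted p = 0.751), and Irgm1, higher by 0.40 ± 0.14 (0.10 to 0.70, unadjusted p = 0.0134, adjusted p = 0.754). All 3 cKO libraries were above all 3 wt libraries for 5 members (5.6% of all genes): Irf1, Irf9, Irgm1, Oas2 and Ifi27l2a. Without the count filter Irf1 passed (0.57, adjusted p = 0.0365), in a fit that called 223 of 29438 genes in this comparison.

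On the opposite side, none of the 33 members passed between genotypes (0.0% of all genes called); at an unadjusted p under 0.05 edgeR and DESeq2 found 0 (edgeR 2.7% of all genes) and limma-voom 1, Ifit3b. All 3 cKO libraries were above all 3 wt libraries for 2 members, Oasl2 and Oas2 (3.4% of all genes), and below for 1, Ifit3 (3.6% of all genes). The median log2 difference of cKO and wt was 0.06 on the injured side, with 22 members above 0 (50.4% of all genes), and 0.07 on the opposite side, with 21 above 0 (49.7%). For the 18 members within 2-fold between sides, the 95% intervals of the genotype difference reached from −1.10 to 0.79 on the injured side and from −0.80 to 0.89 on the opposite side. The lower limit of −1.10 belongs to Ifit1, and other members were bounded more tightly: on the injured side the interval was −0.12 to 0.28 for Stat2, −0.28 to 0.16 for Cmpk2 and −0.01 to 0.55 for Irf9.

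**Figure D5:**
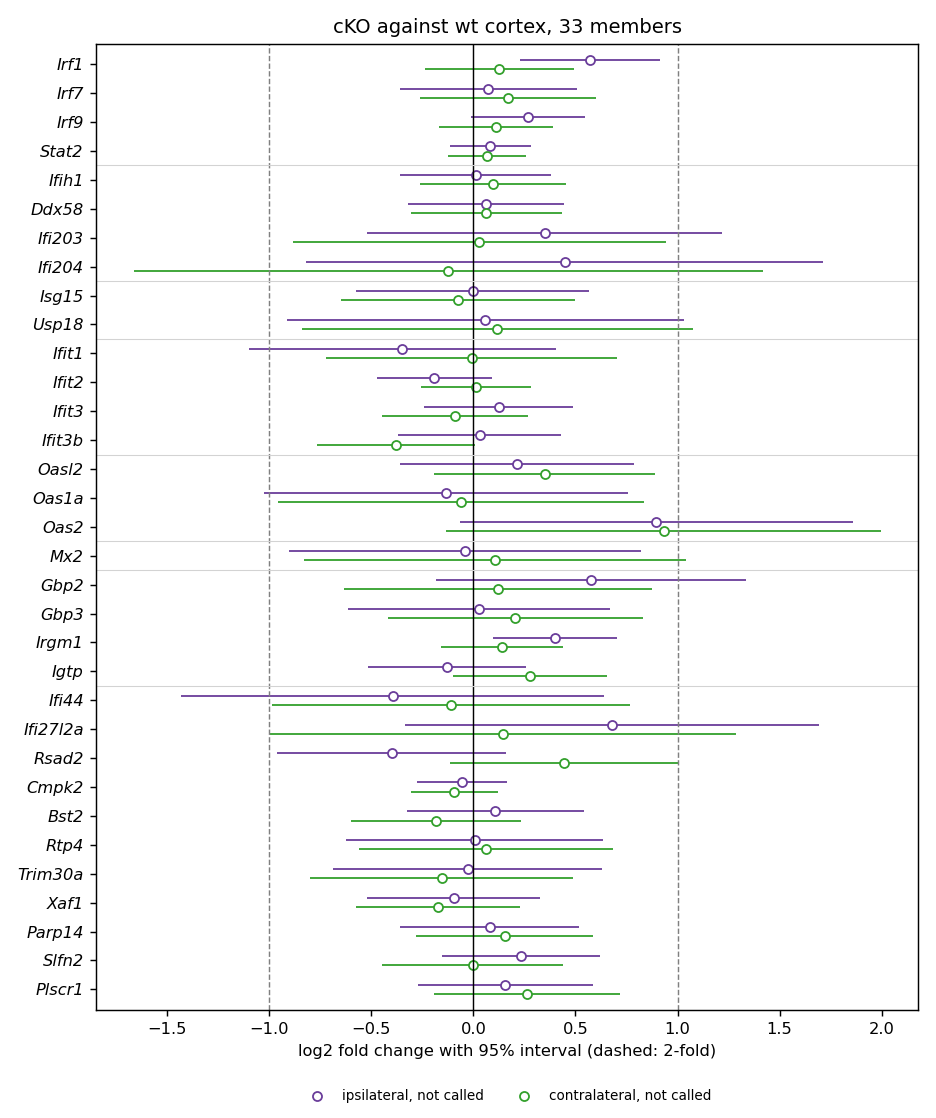
Log2 fold change (x axis) of cKO against wt with its 95% interval for 33 tested members (y axis, grouped by role), on the ipsilateral (purple) and contralateral (green) side; dashed lines mark 2-fold. No point is filled because none passed, and the ipsilateral intervals of Irf1 and Irgm1 lie above 0.

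The difference between the injury responses of the genotypes was tested as an interaction, and none of the 33 members passed (0.0% of all genes called). Rsad2 had the only unadjusted p under 0.05 with edgeR and with limma-voom, and DESeq2 gave none (edgeR 2.26% of all genes). Its change was smaller in cKO by 0.84 ± 0.37 on the log2 scale (95% interval −1.64 to −0.05, unadjusted p = 0.0387, adjusted p = 1). The interaction was above 0 for 16 of 33 members (49.9% of all genes). For Irf1 the response in cKO minus that in wt was 0.45 ± 0.23 (−0.05 to 0.95, adjusted p = 1), for Slfn2 0.24 ± 0.28 (−0.35 to 0.82) and for Plscr1 −0.11 ± 0.29 (−0.73 to 0.52). The 3 rising members were thus higher on the injured side in both genotypes, and the size of the rise was not shown to differ between them.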

How the data were processed

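The deposited tables hold RSEM estimated counts (expected counts, deposited as whole numbers) and TPM per gene for 12 libraries of poly(A) RNA made with a stranded kit, per the labels. Per the submitters' processing notes, Trim Galore 0.6.4, STAR 2.7.1a, RSEM 1.2.28 and DESeq2 1.36.0 were used with mm10; the TPM values were also made by the authors. The annotation and strand setting of the counting are not given in the sources used here. Identifiers were matched to GENCODE M21 (55227 of 55487, 99.5%).

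The members and lists were chosen with earlier results of these data known. Counts were fitted over all 4 groups in R 4.3.3 with edgeR 4.0.16 (filterByExpr with minimum count 10 and minimum total 15, TMM scaling, quasi-likelihood test, Benjamini-Hochberg threshold 0.05); the code was tested on simulated counts. Values in every library are given for members called in any comparison, Ifnb1, the 3 most abundant uncalled members and Isg15, Ifit1, Ifit3, Irf7, Usp18, Oasl2, Rsad2, Cmpk2 and Stat2. Other lists are given by counts with up to 4 called genes per comparison. Reads shared by similar genes were gauged as 50-base stretches found in other genes' transcripts. Alternatives were DESeq2 1.42.0 size factors and test, library totals, no or a strict filter (1 CPM in 3 libraries, total 100), limma 3.58.1 voom, limma on log2 TPM with 1 or 0.1 added, each library left out, 2 libraries left out together, the replicate number as a block, and the 2 compared groups alone.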

Additional observations from a re-analysis of the deposited data

How the results depend on the processing

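The calls of Slfn2 held in 24 of 24 alternatives in cKO and 23 of 24 in wt, those of Irf1 in 23 and 21, and those of Plscr1 in 8 and 17. No direction reversed among the members called. With each library left out in turn, 2 to 3 members were called higher in wt and 2 to 3 in cKO. Over both genotypes 3 to 5 were called higher. In these fits 2 to 3 were rising, 14 to 18 were within 2-fold, and none was called lower or between genotypes. They tested 17113 to 17228 genes. Of these, 250 to 861 were called in wt, 277 to 579 in cKO and 876 to 2075 over both, in either direction. On log2(TPM + 1) or log2(TPM + 0.1) 1 of 23 tested members was called higher in wt. Of all 14730 genes in these fits, 139 and 138 were called in wt, in either direction. The fit on log2(TPM + 1) with no filter called 98 of all 29480 genes in wt, 170 in cKO and 319 over both. Of 37 members, 0 were called in wt, 1 in cKO and 1 over both, 1 was rising and 32 were within 2-fold. The added 1 shrinks the change of members below 1 TPM, so this last count does not bound them. With no count filter 7 were called over both genotypes (adding Gbp2, Ifi204 and Oas3) and 1, Irf1, between genotypes on the injured side. That fit called 1929 and 223 of all 29438 genes in these 2 comparisons. The main fit called 1350 and 0 of 16836. The cause was not tested. The difference of Tmem173 between cKO and wt ranged from −1.77 to −0.948 CPM on the injured side and from −1.88 to −1.29 CPM on the opposite side with each library left out. Scaling by library totals moved the median of all genes by less than 0.1 (log2). It changed the sign of 2 members near 0 over both genotypes, Ifit1 and Bst2. Between genotypes it changed 3 signs on the injured side (Mx2, Trim30a and Isg15) and 2 on the opposite side (Ifit1 and Slfn2). With this scaling 25 members were above 0 on the injured side (median 0.11) and 23 on the opposite side (median 0.07). In the interaction 1 sign changed, that of Ddx58.

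Libraries of both sides carry the same replicate numbers, and nothing says that equal numbers are 1 animal. After group means were removed, equal numbers correlated at −0.00648, 0.101 and 0.0470 in wt and at 0.0733, 0.0986 and 0.0624 in cKO over all tested genes. Over the 11538 genes that averaged 5 CPM or more, the correlations were −0.255, 0.397 and 0.0185 in wt and 0.223, 0.308 and 0.231 in cKO. All 3 cKO pairs thus exceeded 0.1 in the second set and none did in the first. Of the wt pairs only number 2 exceeded 0.1, in both sets, and its 0.397 was the highest value. The numbers were not taken as pairs. With the replicate number as a block, 3 members were called higher in wt, 3 in cKO (Irf1, Slfn2 and Irgm1) and 5 over both. That fit called 567, 533 and 1484 of all 16836 genes in these comparisons, in either direction. In cKO Irgm1 was then called (0.42, adjusted p = 0.0423) and Plscr1 was not (0.84, adjusted p = 0.0691), and over both Irgm1 was added (0.28, adjusted p = 0.0280). With the block 4 were rising and 17 within 2-fold. At this depth the 5 members below the filter were not tested.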
